A study of Mus musculus with 25 samples.

Results

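Accessible chromatin at the solute carrier (Slc) genes was described in T_FGS, the CD8+ T cells whose target antigen is carried by a paternal-strain skin graft and by the fetus alike. Each peak was assigned to the protein-coding gene whose transcription start lay nearest to the peak's middle (GENCODE vM39, GRCm39), and the peaks whose gene symbol starts with Slc and a digit were kept. They numbered 211 of 13527 peaks (1.56%) and belonged to 141 of the 377 protein-coding Slc genes of the annotation. Of these, 129 were promoter peaks, with their middle within 1000 bp of a protein-coding transcript start, and 82 were distal. A peak is named for its nearest gene here, whether or not it regulates that gene. Of the promoter peaks, 9 lay nearest to a transcript of another gene, and of the distal peaks 8 lay inside another gene.

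Solute carriers are membrane proteins that move sugars, amino acids, nucleosides, vitamins, metals and ions across the cell surface and the membranes of organelles, as facilitators, exchangers or cotransporters driven by ion gradients. When T cells are activated they take up more glucose and amino acids, chiefly through GLUT1 (Slc2a1), the glutamine carriers ASCT2 (Slc1a5) and SNAT1 (Slc38a1), and the large neutral amino acid carrier formed by LAT1 (Slc7a5) with CD98 (Slc3a2). Accessible promoters and enhancers are regions where proteins can reach the DNA, and an open region does not by itself give the level of a transcript.

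The cells came from spleen and lymph nodes of C57BL/6 females and were sorted with a tetramer of an ovalbumin peptide on H-2Kb, an antigen that the paternal 2W-OVA.BALB/c strain carries. Naive mice (3 libraries) had neither graft nor pregnancy, and Sensitized mice (4 libraries) had received an allogeneic skin graft. N+P mice were naive before a semi-allogeneic pregnancy, and S+P mice had the graft first. Naive and Sensitized mice were unmated, while the N+P and S+P libraries come from post-partum animals. Post-partum cells were divided by the inhibitory receptor PD1 and the ectoenzyme CD73 into N+P C1 (PD1-, 3 libraries), N+P C5 (PD1+CD73+, 3), S+P C4 (PD1-, 4), S+P C5 (PD1+CD73+, 4) and S+P C7 (PD1+CD73-, 4). The labels name no such division for Naive and Sensitized cells, and they give no ages. Every library is a bulk sample of a sorted population, so fewer open cells and less accessibility per cell cannot be told apart.

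Total counts in peaks ranged from 2430890 (S+P C4 replicate 1) to 25419715 per library, with a median of 8197552. Weak peaks are counted less precisely in the shallow libraries. Slc peaks held between 1.36% and 1.42% of the counts of any library. The CD8+ T cell label was checked on promoter peaks: 5 of 7 T cell and CD8 genes had one (Cd8a, Cd3d, Cd3e, Cd3g and Cd5), and their summed normalized count lay between 1682 and 2934 in every library. No peak was named for the 5 B cell or the 6 myeloid genes. Of the 3 CD4 T cell genes only Cd4 and of the 2 NK cell genes only Klrb1c had a peak, both distal, while 1 of 4 erythroid genes (Klf1) had a promoter peak, at 388 to 528 counts in all groups. By the correlation of log2 normalized counts across all peaks, 10 of 25 libraries stood nearer to another group than to the rest of their own, 5 of them by more than 0.01, a limit set after the values were seen. Sensitized replicates 3 and 4 correlated at 0.973 and 0.955 with N+P C5 against 0.918 and 0.937 with their own group. Replicate 1 of Sensitized stood nearer to S+P C4 (0.931 against 0.868), S+P C4 replicate 1 to N+P C5 (0.923 against 0.869) and Naive replicate 3 to N+P C1 (0.988 against 0.970). The labels were used as given. Whether these libraries reflect spread between animals or a matter of labelling was not tested, and every comparison with Naive, Sensitized or S+P C4 rests on the labels in that respect.

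The sequences below are the 300 bases around the middle of peaks that lead a comparison, opening or closing, and they are shown because the results turn on these regions. They were read from the plus strand of GRCm39. Capitals mark matches, on either strand, to AP-1 (TGANTCA), RUNX (AACCACA), TCF/LEF (ATCAAAG), T-box (AGGTGTG) and E-box (CACGTG) motifs, factor families known from T cell activation, memory and quiescence. The Slc35f3 intron window, chr8:126926874-126927173, held a T-box and a RUNX match. The window upstream of Slc6a19, chr13:73857980-73858279, held an AP-1 match. The Slc23a2 intron window, chr2:131956399-131956698, held an E-box match. The Slc28a1 intron window, chr7:80804750-80805049, held a T-box and a TCF/LEF match that share their junction bases. The far Slc9a9 intron window, chr9:94827822-94828121, held an AP-1 and a TCF/LEF match. The Slc12a7 intron window, chr13:73897140-73897439, held none of the 5 motifs. The windows of the other leading peaks, in introns of Slc6a19 and Slc36a3 and upstream of Slc30a5, also held none and are not shown.
Slc35f3: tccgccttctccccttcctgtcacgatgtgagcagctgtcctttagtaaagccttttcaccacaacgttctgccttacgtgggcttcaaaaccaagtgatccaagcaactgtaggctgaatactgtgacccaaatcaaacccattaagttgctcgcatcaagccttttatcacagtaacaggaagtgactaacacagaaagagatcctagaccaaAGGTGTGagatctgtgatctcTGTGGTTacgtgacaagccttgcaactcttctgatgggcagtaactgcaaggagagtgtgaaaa
Slc6a19: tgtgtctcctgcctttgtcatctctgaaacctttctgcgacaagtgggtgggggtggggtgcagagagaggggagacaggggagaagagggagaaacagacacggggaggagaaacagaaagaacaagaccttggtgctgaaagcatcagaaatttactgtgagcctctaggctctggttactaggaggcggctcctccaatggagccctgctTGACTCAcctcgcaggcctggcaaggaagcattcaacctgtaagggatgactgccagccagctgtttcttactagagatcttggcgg
Slc23a2: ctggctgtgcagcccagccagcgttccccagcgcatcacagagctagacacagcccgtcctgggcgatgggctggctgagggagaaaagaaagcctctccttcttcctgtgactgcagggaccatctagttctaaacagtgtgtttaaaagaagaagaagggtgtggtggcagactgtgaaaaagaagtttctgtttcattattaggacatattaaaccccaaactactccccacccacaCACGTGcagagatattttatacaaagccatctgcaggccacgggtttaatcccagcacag
Slc28a1: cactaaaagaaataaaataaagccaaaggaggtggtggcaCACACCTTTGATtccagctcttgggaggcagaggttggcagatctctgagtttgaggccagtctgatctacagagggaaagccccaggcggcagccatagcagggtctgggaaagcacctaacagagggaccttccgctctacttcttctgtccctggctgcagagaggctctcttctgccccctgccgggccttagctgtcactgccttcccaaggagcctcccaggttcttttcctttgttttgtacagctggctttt
Slc9a9: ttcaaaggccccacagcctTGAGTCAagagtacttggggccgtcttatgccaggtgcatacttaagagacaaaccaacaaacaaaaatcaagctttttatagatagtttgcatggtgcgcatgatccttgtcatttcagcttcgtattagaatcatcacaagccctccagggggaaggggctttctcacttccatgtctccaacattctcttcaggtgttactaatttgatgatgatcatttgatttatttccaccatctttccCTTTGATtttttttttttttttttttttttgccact
Slc12a7: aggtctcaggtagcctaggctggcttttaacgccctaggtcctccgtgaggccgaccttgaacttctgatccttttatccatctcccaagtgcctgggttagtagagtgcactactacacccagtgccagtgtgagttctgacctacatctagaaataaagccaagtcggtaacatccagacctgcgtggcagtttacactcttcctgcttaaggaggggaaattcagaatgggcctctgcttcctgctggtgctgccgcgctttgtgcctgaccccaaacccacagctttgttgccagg

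Over all 82 distal Slc windows of this length, 15 (18.3%) held an AP-1 match, 20 (24.4%) a RUNX match and 9 (11%) a TCF/LEF match, against 15.8%, 20.1% and 7.21% of all distal windows. Among the 19 distal Slc peaks that closed in S+P C7 vs Sensitized, 6 (31.6%) held a TCF/LEF match, against 13.9% of all distal peaks closing there. Among the 15 distal Slc peaks that opened in Sensitized vs Naive, 3 of 15 held an AP-1 match and 6 of 15 a RUNX match, where 28.4% and 25.4% of all opening distal peaks did. T-box matches stood in 10 distal Slc windows (12.2%, against 9.14% of all). The palindrome CACGTG, bound by MYC and the MiT/TFE factors, stood in 21 of 129 Slc promoter windows (16.3%), against 8.71% of all promoter windows. Of the Slc promoter windows 7 held an AP-1 match (5.43%), 1 a RUNX match (0.775%), 2 a TCF/LEF match (1.55%) and 9 a T-box match (6.98%), against 4.08%, 3.64%, 1.67% and 3.70% of all promoter windows. These shares are descriptions without a test, and a match does not show binding.

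Accessibility was compared between groups with DESeq2's Wald test on the counts of all 13527 peaks in 1 fit over the 25 libraries, with Benjamini-Hochberg adjustment over all peaks. Calls required both an absolute log2 fold change above 0.9 and an adjusted p below 0.1, and a called peak is termed opening where the group named first was higher and closing where it was lower. Of the distal Slc peaks, 39 of 82 (47.6%) were called in 1 or more of 11 comparisons, beside 44.3% of all distal peaks. Of the Slc promoter peaks, 5 of 129 (3.88%) were called, beside 4.95% of all promoter peaks. The 44 called peaks belonged to 31 genes. Distal Slc peaks lay at a median of 20678 bp from the gene start, with 39 in introns, 5 in exons and 38 between genes. Their median GC content was 48.1% (48.1% for all distal peaks), and that of Slc promoter peaks was 60.7% (59.3% for all promoter peaks). Normalized counts are the deposited counts over each library's size factor, listed in the order of replicate numbers. Errors are SD for counts and SE for log2 fold changes.

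**Figure D1:**
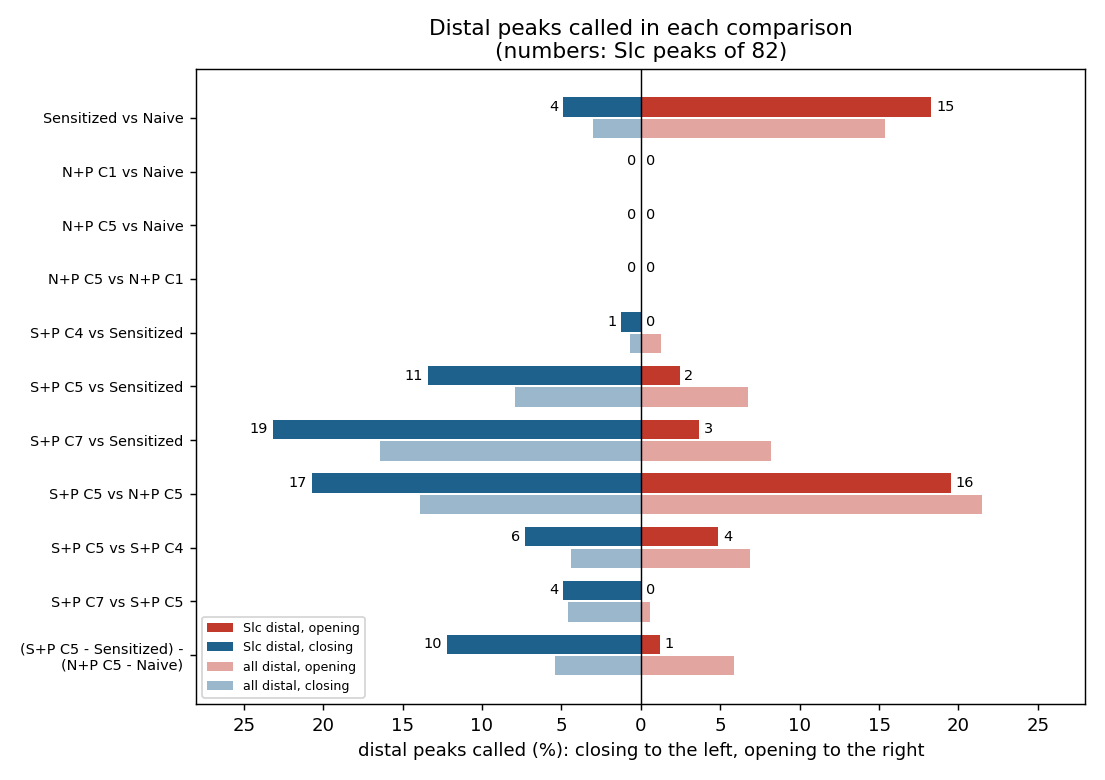
Percent of distal peaks called in each of the 11 comparisons, opening to the right and closing to the left, for the 82 distal Slc peaks (full colour, with their number) and for all 5857 distal peaks (pale). In the 3 comparisons among Naive, N+P C1 and N+P C5 no Slc peak was called, and over all distal peaks there was 1 call in each of the comparisons with Naive.

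Over all distal peaks, 44.3% were called in at least 1 comparison. By substrate, the 16 distal peaks of the ion and pH carriers held 9 called peaks, the 14 of the amino acid, amine and peptide carriers held 7, the 6 of the vitamin, cofactor and choline carriers held 5, and the 7 of the sugar carriers held 4. Mitochondrial carriers of the Slc25 family formed the largest group, with 40 peaks at 30 genes. Only 10 of those were distal, and 2 were called. The Slc35 list, named for nucleotide sugar and Golgi carriers, had 13 promoter peaks and 1 distal peak. The distal one is the called peak in Slc35f3, a gene linked to thiamine transport and listed by its number. Metal carriers (Slc11, Slc30, Slc39 and related) had 3 called peaks among 6 distal ones. These are counts over lists chosen by gene number, with no test of the lists.

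**Figure D2:**
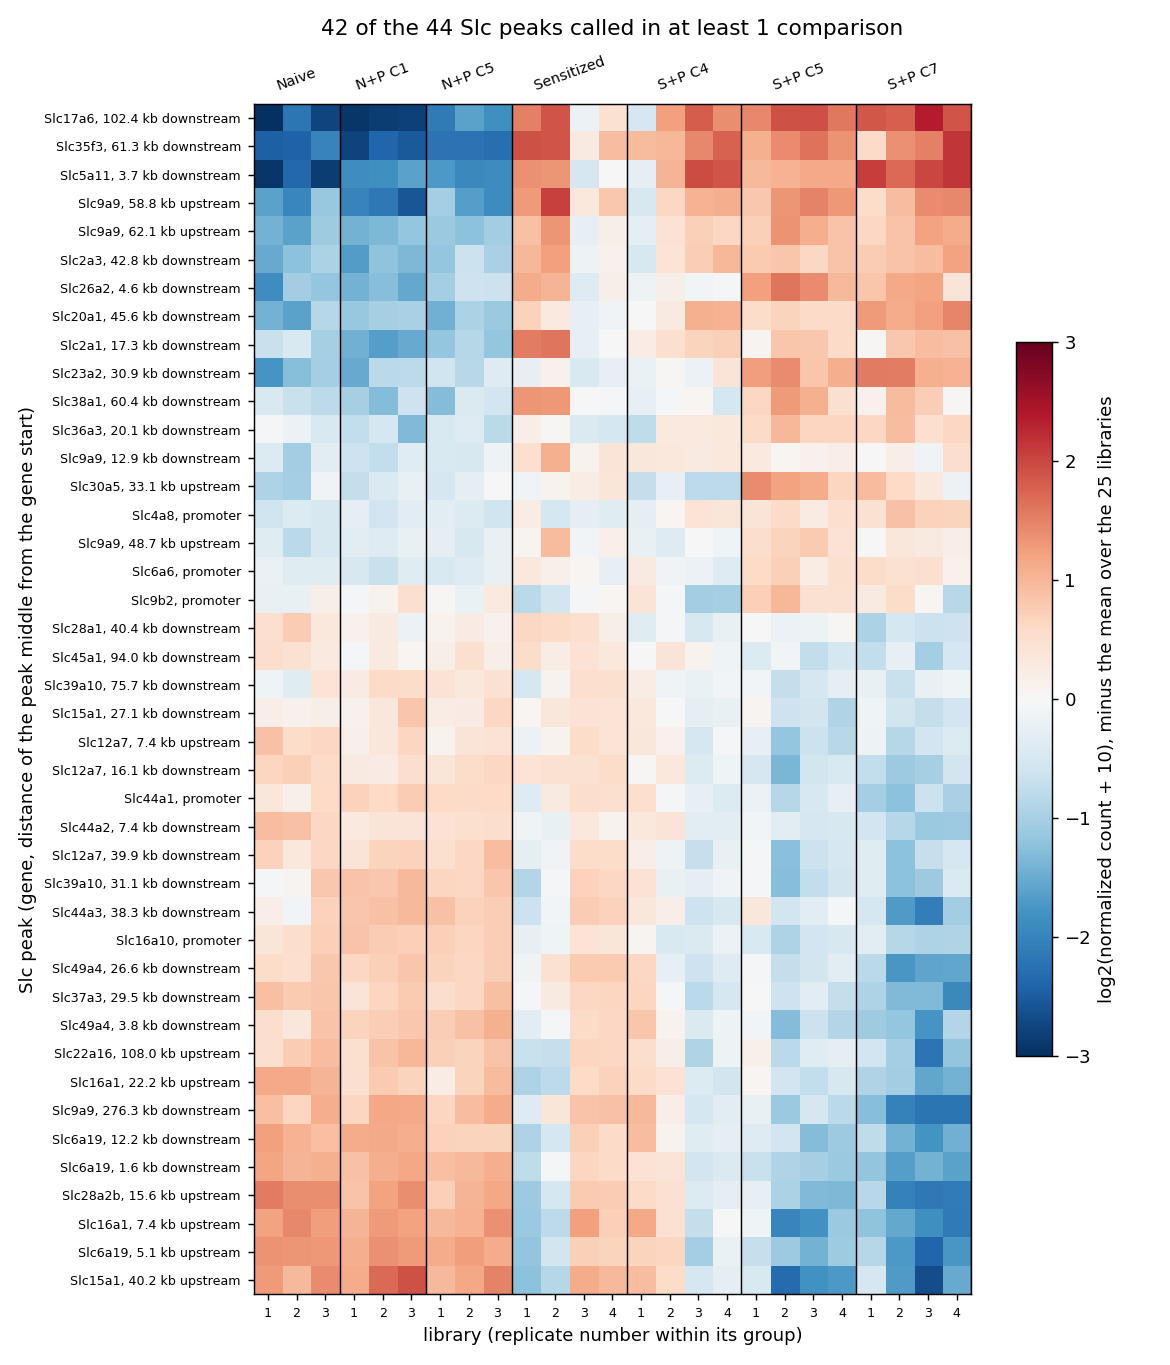
Of the 44 Slc peaks called in at least 1 comparison, 42 are shown (vertical axis, sorted by the difference of the Sensitized and S+P libraries from the others) in the 25 libraries (horizontal axis, by group), as log2(normalized count + 10) minus the mean of the peak. Sensitized replicates 3 and 4 are paler than replicates 1 and 2 at many peaks that opened.

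Sensitized vs Naive asks what graft rejection left on the chromatin. Of the 82 distal Slc peaks 15 were opening (18.3%, near the 15.4% of all distal peaks) and 4 were closing (4.88%, beside 3.04%). The median log2 fold change of the distal Slc peaks was -0.05, beside 0.03 for all distal peaks. With single libraries left out, opening Slc calls ranged from 13 to 17 and closing ones from 1 to 6. No Slc promoter peak was called, beside 1.15% of all promoter peaks, and the median log2 fold change of Slc promoters was -0.01. The genes with an opening peak included Slc2a1 and Slc2a3 (glucose), Slc38a1 (glutamine), Slc17a6 (vesicular glutamate), Slc20a1 (phosphate), Slc26a2 (sulfate), Slc5a11 (inositol) and Slc23a2 (ascorbate). Of the 15 peaks, 4 belonged to Slc9a9, which encodes the endosomal sodium/proton exchanger NHE9.

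The peak in an intron of Slc35f3, a gene linked to thiamine transport, lay at chr8:126926715-126927332, 61290 bp from the gene start. Its normalized counts were 12.4, 12.8 and 20.2 in Naive and 450, 441, 137 and 222 in Sensitized libraries. The groups did not overlap, and replicates 3 and 4 were the lower of the Sensitized libraries. The log2 fold change was 4.33 ± 0.42 (adjusted p = 2.01e-21, DESeq2). In N+P C1 and N+P C5 the counts stayed between 7.74 and 16.4, and in every S+P library between 172 and 533.

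The peak nearest to Slc17a6, the vesicular glutamate transporter VGLUT2, lay between genes at chr7:51373111-51374547, 102395 bp downstream of the start. Naive counts were 26.2, 70.8 and 43.5, and Sensitized counts were 1011, 1328, 310 and 487. The log2 fold change was 4.06 ± 0.47 (adjusted p = 1.49e-15). Slc5a11 encodes the sodium/myo-inositol cotransporter SMIT2. Its intron peak at chr7:122817278-122818073 had counts of 5.51, 12.8 and 6.31 in Naive and of 290, 282, 72.2 and 107 in Sensitized cells, without overlap (log2 fold change 4.51 ± 0.51, adjusted p = 3.19e-16). The Naive counts of this peak are few, so the size of its fold change is the least certain of the 3. All 3 kept their calls in the 16 alternative settings tried for them, but loess offsets gave 2.92 for Slc35f3 and 3.00 for Slc5a11, with 4.09 for Slc17a6.

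Peaks of the glucose carriers followed the same split among the Sensitized libraries. An intron peak of Slc2a1 (chr4:118982784-118983534) had Naive counts of 138, 160 and 107 and Sensitized counts of 674, 707, 186 and 227, for a log2 fold change of 1.74 ± 0.35 (adjusted p = 2.05e-05). An intron peak of Slc2a3, which encodes GLUT3, lay at chr6:122735576-122736066 and had Naive counts of 71.6, 88.5 and 110 against 450, 532, 199 and 243. The log2 fold change of this peak was 1.97 ± 0.31 (adjusted p = 8.07e-09). Neither peak overlapped between the groups, and in both Sensitized replicates 3 and 4 held less than replicates 1 and 2. The Slc23a2 intron peak held 15.2, 25.6 and 32.2 counts in Naive and 62.3, 83.2, 52.7 and 61.8 in Sensitized libraries, without overlap (1.36 ± 0.30, adjusted p = 8.31e-05). The promoter peak of Slc2a1 stayed at group means of 1091 to 1223 in all 7 groups.

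Closing peaks in Sensitized cells were led by the intergenic peak 5146 bp upstream of Slc6a19, which encodes the neutral amino acid transporter B0AT1 of kidney and gut. This peak (chr13:73857362-73858897) held 760, 750 and 741 counts in Naive and 123, 199, 484 and 470 in Sensitized libraries (log2 fold change -1.23 ± 0.40, adjusted p = 0.0157). The next were intergenic peaks upstream of Slc16a1, the lactate and pyruvate carrier MCT1 (chr3:104523437-104523865), and upstream of Slc28a2b, a purine nucleoside carrier gene beside its close copy Slc28a2 (chr2:122299323-122300376). The Slc16a1 peak had Naive counts of 313, 314 and 286 and Sensitized counts of 66.9, 74.5, 210 and 225 (log2 fold change -1.07 ± 0.37, adjusted p = 0.0287). The Slc28a2b peak had 1500, 1349 and 1339 against 231, 345, 883 and 858 (log2 fold change -1.27 ± 0.44, adjusted p = 0.0288). In all 3 the Sensitized libraries fell into a low pair, replicates 1 and 2, and a higher pair, replicates 3 and 4, and neither pair reached the Naive counts. The Slc16a1 call was lost without Sensitized replicate 1 or 2 or Naive replicate 1 or 2, and the Slc28a2b call without Sensitized replicate 2 or Naive replicate 1. With only the compared libraries in the fit neither was called, at values of -1.08 (adjusted p = 0.112) and -1.27 (adjusted p = 0.108). Without Sensitized replicates 3 and 4 together, the Slc6a19, Slc16a1 and Slc28a2b values were -2.23, -2.11 and -2.28, and loess offsets gave -1.63 for Slc16a1. Without replicates 3 and 4, the number of Slc peaks called was 26 (17 opening and 9 closing) in place of 19, and these held all 19, while calls over all peaks went from 1166 to 2052.

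**Figure D3:**
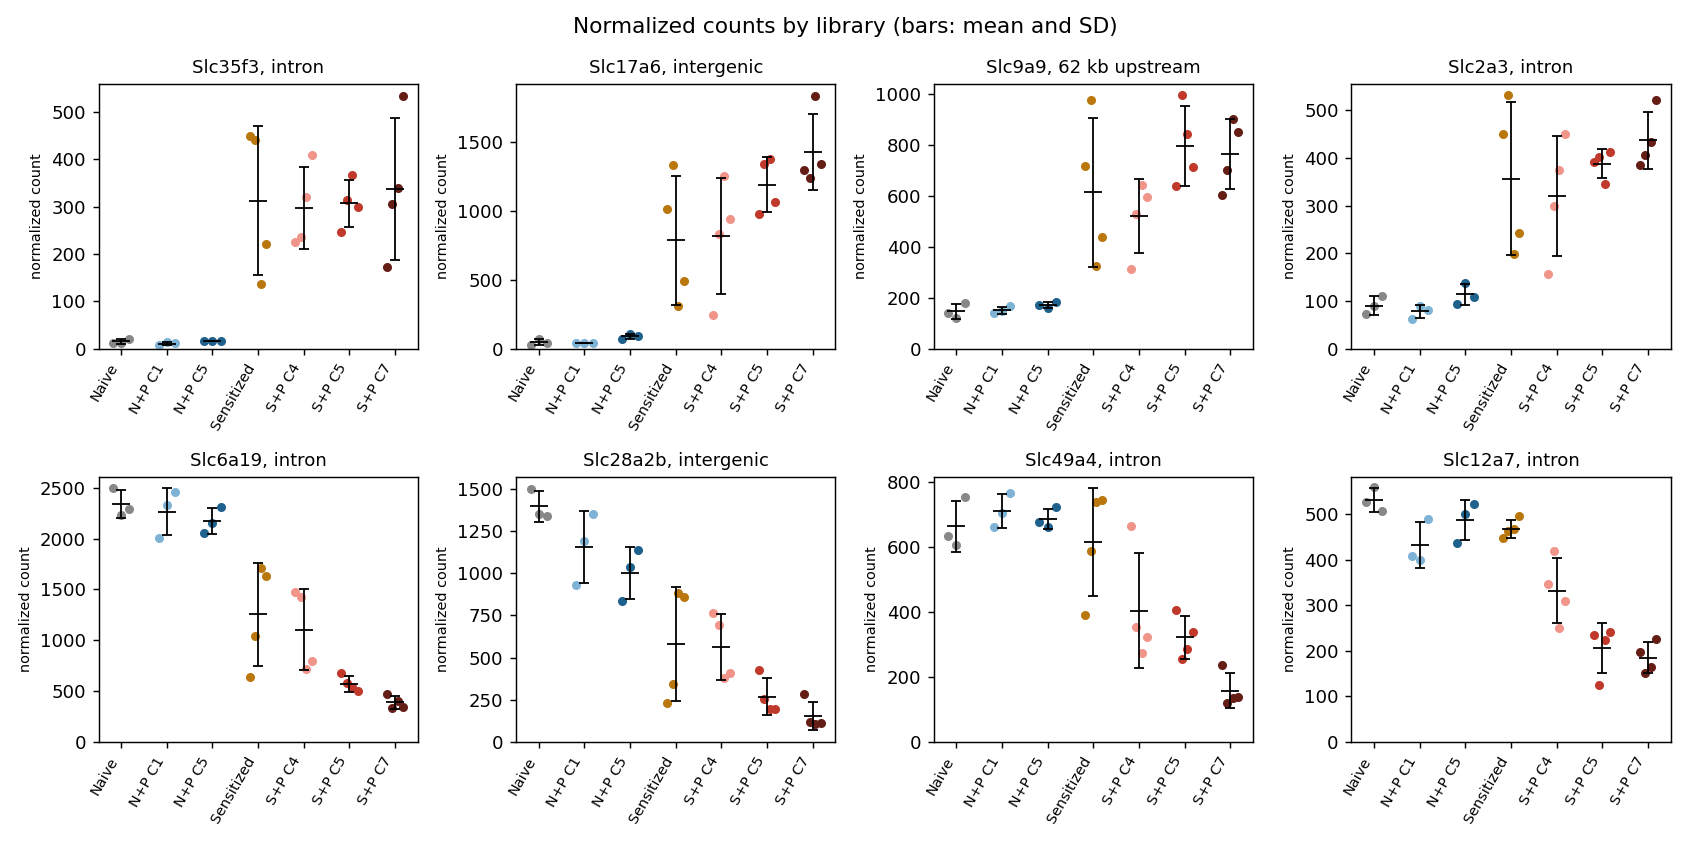
Normalized counts of 8 Slc peaks (each panel has its own axis from 0) in the 25 libraries by group, with the mean and SD of each group. The upper 4 peaks were higher in all Sensitized and S+P libraries than in the 9 unsensitized ones, and the Sensitized libraries spread widely in most panels.

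Pregnancy of naive mice was compared with Naive cells and between the PD1 fractions. No Slc peak was called in N+P C1 vs Naive, N+P C5 vs Naive or N+P C5 vs N+P C1, where 0.00739%, 0.00739% and 0% of all peaks were called by DESeq2. Without Naive replicate 3, a library that stood apart, 160 and 157 peaks in all and 1 Slc peak each were called in the comparisons with Naive, in place of 1 peak in all and no Slc peak. edgeR's quasi-likelihood test called 0 Slc peaks in each of the 3. At an unadjusted p under 0.05 there were 40, 40 and 4 Slc peaks beside 19%, 17.5% and 2.28% of all peaks. The medians of the distal Slc log2 fold changes were -0.13, -0.06 and 0.00, and those of the promoter peaks 0.05, 0.04 and -0.02. DESeq2's filter on weak peaks left 148 and 160 of the 211 Slc peaks without an adjusted p in the comparisons with Naive, and with the filter switched off the count was also 0.

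Single peaks reached the thresholds in other settings. The Slc5a11 peak had counts of 22.1, 22.4 and 28.3 in N+P C1 and of 25.2, 20.6 and 21.6 in N+P C5, all above the 3 Naive libraries, with log2 fold changes of 1.55 ± 0.57 and 1.45 ± 0.57 and no adjusted p. With only the compared libraries in the fit, it and the Slc2a1 intron peak were called in N+P C1 vs Naive, and the Slc17a6 peak was called in N+P C5 vs Naive. Without Naive replicate 3, the Slc2a1 peak was called in N+P C1 vs Naive and the Slc23a2 peak in N+P C5 vs Naive. The N+P C1 counts of the Slc2a1 peak were 76.3, 63.9 and 71.6, below all Naive libraries.

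S+P C4 vs Sensitized compares PD1- cells of grafted mice after pregnancy with cells of other grafted mice that were never mated and whose labels name no PD1 sort. Only 1 Slc peak was called (0.474%), beside 0.858% of all peaks. It is the exonic Slc38a1 peak at chr15:96481082-96481877, 60371 bp from the start of this glutamine carrier gene. It held 460, 451, 179 and 171 counts in Sensitized and 150, 173, 187 and 121 in S+P C4 libraries. The groups overlapped, because Sensitized replicates 3 and 4 lay among the S+P C4 values (log2 fold change -1.0 ± 0.32, adjusted p = 0.0526). Without Sensitized replicates 3 and 4 there were 7 called Slc peaks, 4 opening and 3 closing, while calls over all peaks went from 116 to 312. Leaving out single libraries gave 2 without Sensitized replicate 1, 0 without Sensitized replicate 2, 3, 2 and 0 without S+P C4 replicates 1, 2 and 4, and edgeR gave 0.

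S+P C5 vs Sensitized compares the PD1+CD73+ cells of post-partum grafted mice with the cells of unmated grafted mice. Of the distal Slc peaks 11 of 82 closed (13.4%, beside 7.94% of all distal peaks) and 2 opened (2.44%, beside 6.78%), a balance that was not kept without Sensitized replicates 3 and 4 (3 opening and 2 closing Slc peaks in all). At promoters 1 of 129 was called (0.775%, beside 0.652%), the Slc9b2 promoter. The median distal log2 fold change was -0.18 for Slc peaks and -0.07 for all. The closing peaks included all 3 peaks of Slc6a19 and both of Slc49a4, a lysosomal transporter gene.

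The first closing peak lay in an intron of Slc12a7, the potassium/chloride cotransporter KCC4, at chr13:73896832-73897747. It held 448, 464, 467 and 496 counts in Sensitized libraries and 236, 124, 224 and 243 in S+P C5. The 4 Sensitized libraries were close to each other here, and the groups did not overlap (log2 fold change -1.16 ± 0.17, adjusted p = 9.28e-10). A second Slc12a7 peak, intergenic at chr13:73873461-73874130, had a log2 fold change of -0.94 ± 0.21 (adjusted p = 0.000274) and lost its call without Sensitized replicate 3 or 4 or without S+P C5 replicate 2 or 4.

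The first opening peak lay in an intron of Slc23a2, the ascorbate transporter SVCT2, at chr2:131956393-131956705. Sensitized counts were 62.3, 83.2, 52.7 and 61.8, and S+P C5 counts were 193, 220, 144 and 172. The groups did not overlap, and the log2 fold change was 1.49 ± 0.24 (adjusted p = 2.93e-08). With loess offsets in place of size factors the value was 0.11 (adjusted p = 0.807), so the call rests on the scaling. The second opening peak, intergenic 33110 bp upstream of Slc30a5, a zinc transporter of the Golgi, lay at chr13:101002820-101003412. It had 155, 182, 198 and 220 counts against 467, 399, 371 and 266 (log2 fold change 1.00 ± 0.25, adjusted p = 0.00128). The Slc9b2 promoter peak, at a gene of the sodium/proton exchanger family, had 94.0, 115, 167 and 181 against 292, 355, 240 and 240 (log2 fold change 1.01 ± 0.31, adjusted p = 0.0101). With loess offsets the Slc30a5 and Slc9b2 values fell under the fold threshold, at 0.71 (adjusted p = 0.0337) and 0.76 (adjusted p = 0.0595), so that scaling gave 0 opening and 13 closing Slc peaks against 3 and 11. Without S+P C5 replicate 1 the Slc30a5 peak was not called, and without S+P C5 replicate 2 or Sensitized replicate 1 the Slc9b2 peak was not.

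The number of calls depended on which Sensitized libraries were used. Without Sensitized replicates 3 and 4, 5 Slc peaks were called in place of 14, while calls over all peaks went from 912 to 439, and 4 of the 5 were among the 14: the Slc23a2, Slc30a5 and Slc9b2 peaks and the Slc12a7 intron peak. Without Sensitized replicate 3 alone the count was 8, and without replicate 4 alone it was 9. Without replicate 1 alone it was 19, with 14 closing, and without replicate 2 alone 19, with 13 closing. The Slc6a19 intron peak, for example, held 634, 1040, 1710 and 1631 counts in Sensitized libraries, against 677, 577, 536 and 498 in S+P C5. Sensitized replicate 1 lay among the S+P C5 values, so the groups overlapped (log2 fold change -1.13 ± 0.23, adjusted p = 3.86e-05).

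In S+P C7 vs Sensitized the calls were mostly closing. Of the distal peaks 19 were closing (23.2%, beside 16.4% of all distal peaks) and 3 opening (3.66%, beside 8.20%). At promoters, 2 of 129 were called (1.55%, beside 2.11%): Slc4a8, the sodium-driven chloride/bicarbonate exchanger, opened, and Slc44a1, the choline transporter CTL1, closed. At an adjusted p under 0.1 without the fold threshold, 37 Slc promoters were higher and 27 lower (49.6% together, beside 47.6% of all promoters), so small promoter differences were common.

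An intron peak of Slc28a1, the pyrimidine nucleoside carrier CNT1, had the smallest adjusted p (chr7:80804554-80805245). It held 459, 442, 423 and 334 counts in Sensitized and 146, 201, 184 and 188 in S+P C7 libraries (log2 fold change -1.21 ± 0.14, adjusted p = 4.80e-15). Sensitized replicates 3 and 4 did not form a separate pair here, and the groups did not overlap. The Slc49a4 intron peak at chr16:35562578-35563674 held 391, 587, 738 and 745 against 236, 119, 134 and 139 (log2 fold change -1.96 ± 0.25, adjusted p = 2.46e-13). The far intron peak of Slc9a9, 276303 bp inside the gene at chr9:94827415-94828529, held 193, 330, 464 and 471 against 98.7, 54.5, 48.0 and 47.7. The log2 fold change came to -2.54 ± 0.32 (adjusted p = 4.79e-13), the most negative among the Slc peaks of this comparison. These 3 peaks kept their calls in all 17 alternative settings tried for them.

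Opening peaks were again led by Slc23a2 (242, 237, 169 and 166 in S+P C7, log2 fold change 1.65 ± 0.24, adjusted p = 2.03e-10, but 0.25 with loess offsets). The Slc4a8 promoter (chr15:100659421-100660062) held 374, 220, 261 and 245 against 447, 592, 527 and 511 (log2 fold change 0.91 ± 0.16, adjusted p = 2.38e-07). This value stands just over the fold threshold, and it fell under it in 6 of 17 alternative settings. The intergenic peak 45576 bp downstream of Slc20a1, the phosphate importer PiT1 (chr2:129085433-129086230), held 286, 212, 143 and 159 against 433, 381, 418 and 491 (log2 fold change 1.11 ± 0.24, adjusted p = 3.53e-05). The Slc44a1 promoter (chr4:53439716-53441495) held 416, 659, 797 and 773 against 267, 228, 350 and 275, without overlap (log2 fold change -1.24 ± 0.20, adjusted p = 2.47e-08). Without Sensitized replicates 3 and 4, 14 Slc peaks were called in place of 24 (1 opening and 13 closing), of which 11 were among the 24, while calls over all peaks went from 1605 to 942. Loess offsets gave 0 opening and 20 closing against 4 and 20.

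**Figure D4:**
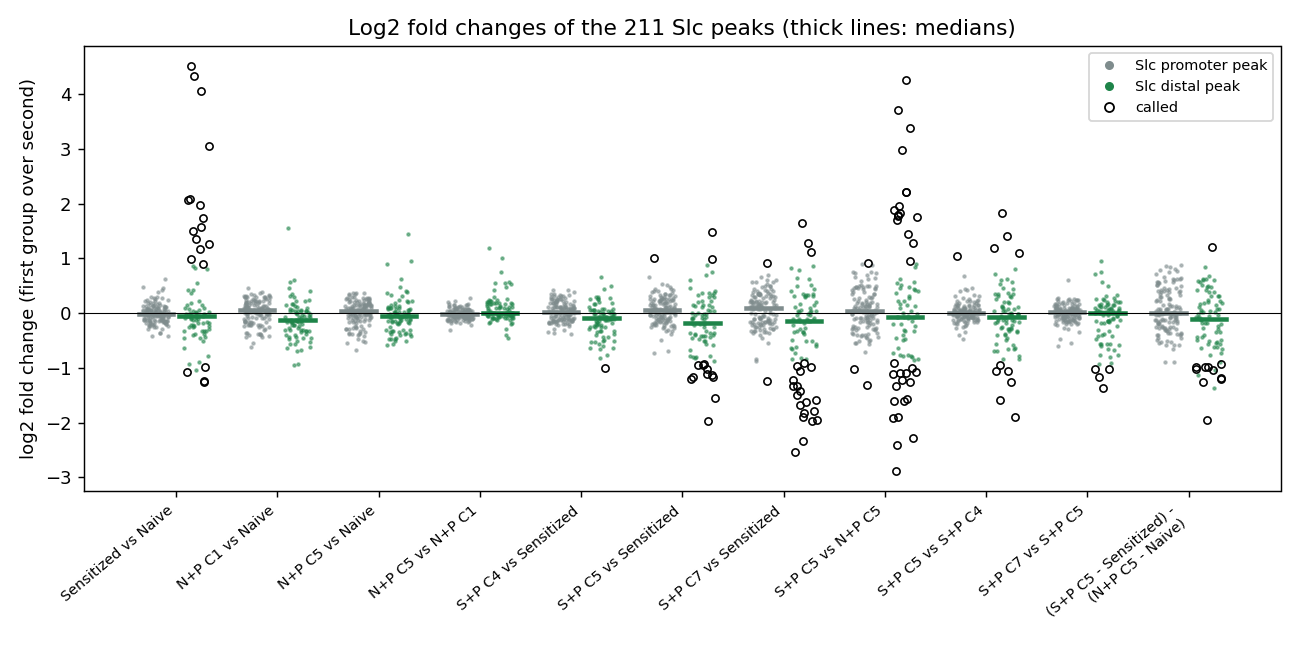
Log2 fold changes (first group over second) of the 129 promoter and 82 distal Slc peaks in the 11 comparisons, with medians as thick lines and called peaks circled. Promoter peaks lay between -1.31 and 1.05, while distal peaks reached 4.51 in Sensitized vs Naive and -2.88 for S+P C5 vs N+P C5.

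S+P C5 vs N+P C5 compares the PD1+CD73+ cells of sensitized and naive mice after pregnancy, and neither group is Sensitized. The Sensitized libraries entered only through the size factors and the estimate of spread of the shared fit. This comparison called the most Slc peaks: 16 distal opening (19.5%, beside 21.5% of all distal peaks), 17 distal closing (20.7%, beside 13.9%) and 3 promoters (2.33%, beside 3.36%). The Slc35f3 peak led the opening ones, with 16.1, 16.4 and 15.6 counts in N+P C5 against 246, 314, 367 and 299 in S+P C5 (log2 fold change 4.25 ± 0.43, adjusted p = 2.02e-20). It was followed by the Slc17a6 peak, with 72.4, 108 and 91.4 against 974, 1335, 1374 and 1065 (log2 fold change 3.71 ± 0.46, adjusted p = 6.45e-14). The third was the Slc9a9 peak 62078 bp upstream of the start, at chr9:94489038-94490143. It held 173, 158 and 183 counts in N+P C5 against 636, 995, 840 and 710 in S+P C5 (log2 fold change 2.21 ± 0.28, adjusted p = 3.25e-13). These 3 peaks did not overlap between the groups.

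The first closing peak was the Slc6a19 intron peak at chr13:73850287-73852556, with 2051, 2156 and 2310 counts in N+P C5 against 677, 577, 536 and 498 in S+P C5 (log2 fold change -1.92 ± 0.25, adjusted p = 6.68e-13). The peak also overlaps the antisense lncRNA gene Slc6a19os of the annotation, and ATAC-seq carries no strand. The second was the promoter of Slc16a10, which encodes the aromatic amino acid carrier TAT1, at chr10:40016944-40018637. It held 929, 888 and 947 against 411, 292, 372 and 401 (log2 fold change -1.31 ± 0.18, adjusted p = 3.97e-12). In Naive libraries this promoter held 729, 821 and 939 counts and in Sensitized libraries 476, 517, 755 and 722. The third was the Slc12a7 intron peak (438, 500 and 523 against 236, 124, 224 and 243, log2 fold change -1.22 ± 0.18, adjusted p = 7.47e-10). All 6 peaks kept their calls in the 15 alternative settings tried for them, but with loess offsets the Slc35f3 value was 2.16 in place of 4.25. The other called promoters were Slc44a1, closing (-1.02 ± 0.22, adjusted p = 1.64e-05), and an inner promoter of the taurine carrier gene Slc6a6, opening (0.91 ± 0.18, adjusted p = 4.90e-06).

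Several closing peaks lay inside other genes or in pairs. The most negative value belonged to the peak 40204 bp upstream of Slc15a1, the peptide transporter PEPT1, in an intron of Dock9 (chr14:121782690-121783408). It held 236, 274 and 343 counts in N+P C5 against 81.4, 15.3, 26.1 and 28.4 in S+P C5 (log2 fold change -2.88 ± 0.59, adjusted p = 7.45e-06), while Sensitized libraries held 43.8, 60.4, 262 and 238. The nearer of the upstream Slc16a1 peaks (chr3:104538129-104538674) held 209, 221 and 281 against 92.7, 18.4, 21.9 and 41.8 (-2.41 ± 0.54, adjusted p = 5.10e-05). Peaks named for Slc22a16, a carnitine transporter gene, and for Slc45a1, a sugar transporter gene, lay in introns of Cdk19 and Rere, at 108009 and 93993 bp from their starts. The Slc22a16 peak closed for S+P C5 vs N+P C5 (-1.07 ± 0.38, adjusted p = 0.0106), and the Slc45a1 peak closed in S+P C7 vs Sensitized (-1.05 ± 0.17, adjusted p = 3.60e-08).

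Slc6a19 and Slc12a7 are neighbours, and their 8 peaks follow each other on chromosome 13 over 80.9 kb with no peak of another gene between them. For S+P C5 vs N+P C5, 6 of the 8 were closing (beside 13.9% of all distal peaks), namely the 3 peaks of Slc6a19 and 3 of the 5 of Slc12a7. The exceptions were the Slc12a7 promoter peak, with a mean of 652 in N+P C5 against 493 in S+P C5, and the intron peak 3878 bp inside Slc12a7 (896 and 526). The Slc6a19 intron peak was the highest of the stretch, with a mean of 2338 ± 138 in Naive (n = 3), 1254 ± 510 in Sensitized (n = 4), 1103 ± 398 in S+P C4, 572 ± 77.1 in S+P C5, and lowest at 389 ± 60.8 in S+P C7. Both Sensitized and S+P C4 spread over more than a 2-fold range at this peak, with S+P C4 libraries at 1470, 1421, 721 and 797. The stretch was singled out after its values were seen, and its peaks are neighbours rather than independent observations.

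**Figure D5:**
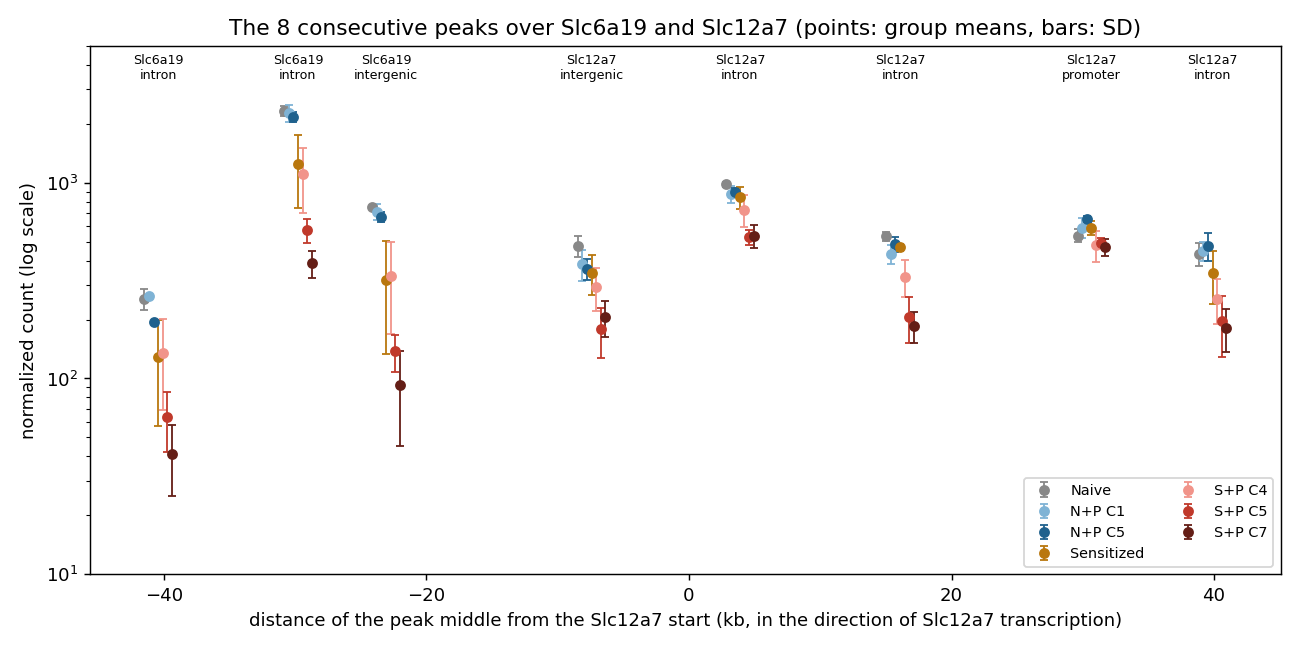
Normalized counts (log axis, group mean and SD, groups offset sideways for legibility) of the 8 consecutive peaks over Slc6a19 and Slc12a7, by distance in kb of the peak middle from the Slc12a7 start. The S+P C5 and S+P C7 means lie lowest at all 8 peaks except the promoter peak, where S+P C4 lies between them.

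Slc9a9 held the most peaks of any Slc gene, 8, and moved in both directions. In Sensitized vs Naive 4 of them opened and none closed (beside 15.4% and 3.04% of all distal peaks). Besides the peak 62078 bp upstream, the peak 58756 bp upstream had group means of 38.1 in Naive, 19.6 in N+P C1, 40.1 in N+P C5, 319 in Sensitized and 212 to 319 in the S+P groups. The far intron peak went the other way, with means of 478, 515 and 485 in Naive, N+P C1 and N+P C5, 364 in Sensitized, 294 in S+P C4, 161 in S+P C5, and lowest at 62.2 in S+P C7. The promoter peak of Slc9a9 stayed between group means of 445 and 592. The 3 Slc12a7 peaks and the 3 Slc6a19 peaks were called only as closing.

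S+P C5 vs S+P C4 and S+P C7 vs S+P C5 compare cells taken, by their label numbers, to be sorted from the same 4 mice. In the first, 4 distal Slc peaks opened (4.88%, beside 6.85% of all distal peaks), 6 closed (7.32%, beside 4.37%) and 1 promoter, that of Slc9b2, opened (0.775%, beside 0.456%). The Slc30a5 peak had S+P C4 counts of 98.7, 140, 93.4 and 92.5 and S+P C5 counts of 467, 399, 371 and 266 (log2 fold change 1.82 ± 0.26, adjusted p = 1.27e-09). The intron peak of Slc26a2, a sulfate transporter gene on chromosome 18, followed with 129, 166, 137 and 139 against 356, 462, 408 and 297 (log2 fold change 1.41 ± 0.29, adjusted p = 4.55e-05). The Slc23a2 peak held 64.7, 77.9, 66.5 and 102 in S+P C4 (log2 fold change 1.19 ± 0.25, adjusted p = 6.73e-05, and 0.03 with loess offsets). Closing was led by the Slc6a19 intron peak (log2 fold change -0.94 ± 0.23, adjusted p = 0.00147) and by the peak 12206 bp inside that gene (-1.06 ± 0.37, adjusted p = 0.0406). Without S+P C4 replicate 1 both lost their calls and 7 Slc peaks were called in place of 11, and without S+P C5 replicate 4 both lost them as well. The intron peak was also not called without S+P C4 replicate 2, nor the inner peak without S+P C5 replicate 3. Loess offsets gave 3 opening and 7 closing against 5 and 6, and -1.72 for the inner peak.

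S+P C7 vs S+P C5 gave 4 closing distal Slc peaks (4.88%, beside 4.56% of all distal peaks), none opening (0.581% of all distal peaks) and no promoter (0.274%). The far Slc9a9 intron peak held 217, 112, 177 and 141 counts in S+P C5 against 98.7, 54.5, 48.0 and 47.7 in S+P C7 (log2 fold change -1.37 ± 0.33, adjusted p = 0.00154). The Slc49a4 peak held 406, 254, 287 and 339 against 236, 119, 134 and 139 (-1.03 ± 0.25, adjusted p = 0.00195). The third was an intron peak of Slc37a3, a member of the sugar phosphate exchanger family, at chr6:39324595-39325658 (279, 178, 221 and 165 against 142, 106, 104 and 64.8, log2 fold change -1.03 ± 0.27, adjusted p = 0.00593). These 3 were named because they did not overlap between the groups, so every mouse has the same direction by that choice. With the mouse as a block, 6 Slc peaks were called, 1.5 times the count without it. The count was 1 without S+P C5 replicate 1, the deepest library, and 8 without S+P C7 replicate 1. The Slc49a4 call was lost without S+P C5 replicate 1, and the Slc37a3 call without it or without S+P C7 replicate 4. Loess offsets gave 1 opening and 5 closing against 0 and 4.

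The interaction asks whether the C5 difference that goes with pregnancy was the same in sensitized and naive mice, as the difference between S+P C5 over Sensitized and N+P C5 over Naive. Distal Slc peaks had 10 negative calls (12.2%, beside 5.40% of all distal peaks) and 1 positive call (1.22%, beside 5.84%), and no promoter was called (1.94% of all promoters). The Slc12a7 intron peak had an interaction of -1.03 ± 0.26 (adjusted p = 0.00341): Naive libraries held 528, 561 and 507 counts and N+P C5 438, 500 and 523, where S+P C5 stood below every Sensitized library. Without S+P C5 replicate 2, the library lowest at this peak, it was -0.87 and not called. The positive call was an intron peak of Slc36a3, a proton-coupled amino acid transporter gene, at chr11:55021659-55023293. It held 621, 576 and 472 in Naive, 467, 495 and 364 in N+P C5, 751, 668, 479 and 449 in Sensitized and 973, 1301, 1017 and 1016 in S+P C5 (interaction 1.21 ± 0.32, adjusted p = 0.00538). The count of the interaction ranged from 4 to 23 when single libraries were left out, with 23 without Sensitized replicate 1, 19 without Naive replicate 3, 17 without N+P C5 replicate 1, 7 and 4 without Naive replicates 1 and 2, 6 without N+P C5 replicate 3, 4 without Sensitized replicate 3 or 4 and 4 without S+P C5 replicate 2. It was 3 without Sensitized replicates 3 and 4 together. The balance of directions moved too, with 8 positive and 15 negative calls without Sensitized replicate 1. There were 6 and 13 without Naive replicate 3, and 6 and 11 without N+P C5 replicate 1. Leaving out any other single library gave 1 to 4 positive calls.

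The nutrient transporters that T cells use when activated were described at the promoter peak nearest to the gene start. Of 24 such genes 21 had a promoter peak, and the others had no peak. Over the 11 comparisons the log2 fold changes of these 21 promoters lay between -0.54 and 0.89, and none reached the fold threshold. Of all 18 distal peaks of these genes 8 were called in some comparison (beside 44.3% of all distal peaks), at Slc2a1, Slc2a3, Slc16a1, Slc38a1, Slc20a1 and Slc39a10. Of all their 26 promoter peaks 1 was called (beside 4.95% of all promoter peaks), the inner Slc6a6 promoter, which is not the one nearest to the gene start.

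The widest promoter difference was at Slc38a1 (chr15:96537534-96541335). It held 1157, 1014 and 1048 counts in Naive, 1400, 1183 and 1154 in N+P C5, 1910, 1929, 1367 and 1419 in Sensitized and 2030, 2388, 2348 and 2452 in S+P C5 libraries. All S+P C5 libraries exceeded all N+P C5 libraries, at a log2 fold change of 0.89 ± 0.12 (adjusted p = 8.20e-12), just under the fold threshold. Sensitized stood above Naive without overlap as well (0.63 ± 0.12, adjusted p = 5.22e-06). The most negative value belonged to Slc39a10, a zinc importer, whose promoter peak for an inner transcript lies 72619 bp from the gene start (log2 fold change -0.54 ± 0.10 for S+P C5 vs N+P C5, adjusted p = 1.36e-06). It held means of 3047 ± 87.1 in N+P C5 against 2098 ± 139 in S+P C5.

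Promoter levels were also compared per kilobase of peak, as group means of normalized counts. Slc7a5 ranged from a group mean of 508 normalized counts per kb in N+P C5 to 666 in S+P C7, and its partner Slc3a2 from 409 in N+P C5 to 664 in S+P C7. Slc1a5 lay between 271 (S+P C7) and 354 (N+P C1). The glucose carrier promoters lay at 684 (Naive) to 766 (N+P C1) for Slc2a1 and at 424 (S+P C4 and S+P C5) to 585 (N+P C1) for Slc2a3. Slc11a2, the iron importer DMT1, ranged from 510 in N+P C5 to 893 in S+P C7, and its interaction was 0.81 ± 0.28 (adjusted p = 0.0323), under the fold threshold. Slc16a1 lay at 299 in Sensitized and 395 in N+P C1, and Slc35a1, which brings CMP-sialic acid into the Golgi, at 438 in S+P C7 and 636 in N+P C1.

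A list of 27 genes that set nutrient use without being carriers gave 47 peaks at 19 genes, 21 promoter and 26 distal. In Sensitized vs Naive, 3 of the 26 distal peaks opened (beside 15.4% of all distal peaks), 1 of them at Myc, and 1 closed, at Rictor (beside 3.04%). For S+P C5 vs N+P C5, 4 distal peaks opened (beside 21.5%), 2 closed (beside 13.9%) and 1 of 21 promoters was called (beside 3.36%). In S+P C7 vs Sensitized 4 closed, at Foxo1, Sesn3 and Rictor (beside 16.4%). These counts are small, and nothing particular to the list is read from them. In the 3 comparisons among unsensitized groups, in S+P C4 vs Sensitized, in S+P C7 vs S+P C5 and in the interaction none was called.

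The peak lists that were built for each group hold no replicate error, since each pools the libraries of its group. They listed 82 of the 129 Slc promoter peaks (63.6%) in Naive, 96 (74.4%) in Sensitized, 38 (29.5%) in S+P C4, with 115 (89.1%) for S+P C5, beside 72.5%, 79.4%, 37.5% and 91.5% of all promoter peaks. Of the distal Slc peaks, 45 (54.9%) were listed in Naive, 54 (65.9%) in Sensitized, 9 (11%) in S+P C4, with 55 (67.1%) for S+P C5, beside 49.7%, 60.2%, 13.3% and 71.5% of all distal peaks. The S+P C7 list held 91 promoter (70.5%, beside 75.7%) and 33 distal Slc peaks (40.2%, beside 48.5%). The N+P lists held 84 (C1, 65.1%) and 80 (C5, 62%) Slc promoter peaks, beside 73.4% and 72.6% of all promoter peaks. Each held 42 distal Slc peaks (51.2%, beside 49% and 48.5%). The S+P C4 list is the shortest, with 3788 peaks against 8479 to 11384 in the others. Of the 82 distal Slc peaks, 29 (35.4%) were listed only in Sensitized or S+P groups and 10 (12.2%) only in unsensitized groups, beside 38.3% and 13.4% of all distal peaks. Of the 129 Slc promoter peaks, 33 (25.6%) were in all 7 lists, 31 (24%) only in Sensitized or S+P lists and 4 (3.10%) only in unsensitized lists, beside 34.9%, 18.4% and 2.78% of all promoter peaks.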

How the data were processed

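ATAC-seq, which cuts accessible DNA with a transposase, was run on 25 libraries in 7 groups, assigned from the sample labels. The authors trimmed reads (cutadapt 3.4), aligned them to GRCm39 (Bowtie2 2.2.9), removed duplicates (Picard 2.21.8), called peaks (Genrich 0.6.1), merged them into a peak list for each group with ChIP-R, joined the lists (bedtools 2.27.1) and counted reads per joined peak with deepTools. The deposited table holds whole-number counts per peak and library, not normalized, and the deposited group lists hold a peak score. No column of other samples was present (0).

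Peaks were joined to GENCODE vM39 starts in Python 3.11.15, with sequences read by pysam 0.24.0. Counts were fitted in DESeq2 1.42.0 (R 4.3.3) with 1 coefficient per group, after size factors by the median of ratios. A filter of 10 counts in 3 libraries removed no peak, so all 13527 were tested. Thresholds were an adjusted p of 0.1 and a log2 fold change of 0.9. The scripts were tested on simulated data. Alternatives were edgeR 4.0.16, total-count and loess offsets (limma 3.58.1, span 0.3), other thresholds, the libraries of a comparison alone, replicate blocks, single libraries left out, other gene assignments and, chosen after seeing the data, Sensitized replicates 3 and 4 left out together. Counts ranged from 2430890 to 25419715 per library. No pair of libraries of the same group agreed within sampling noise (lowest chi-square per degree of freedom 2.81), so spread between libraries added to the counting error.

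The transporters, lists and tests were chosen with earlier results of these data known. In each comparison up to 3 opening and 3 closing peaks were named, those without overlap between groups ranked by adjusted p, together with the nearest promoter of 24 nutrient transporter genes and every gene with 3 or more peaks called in a comparison. The Slc38a1 exon peak, the peaks inside other genes and the other called peaks given with values were chosen after their values were seen. The N+P fractions, and likewise the S+P fractions, with the same label number were taken to come from the same mouse. Their deviations from the group means correlated in every pair, at 0.108 to 0.400 (N+P C5 with C1), 0.103 to 0.572 (S+P C5 with C4) and 0.522 to 0.771 (S+P C7 with C5). For S+P C5 replicate 2 the value with S+P C4 was 0.103, while an S+P C4 library of another number gave 0.440. In every other of these pairs the same number gave the higher value. The p-values rest on 1 estimate of spread per peak, pooled over all 25 libraries. In the main fit, fractions with the same label number entered as separate libraries. Some genes are not reported here.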

Additional observations from a re-analysis of the deposited data

Results flagged for a closer look

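In the 23 named peaks, 92 sets of 4 libraries were checked for a library whose gap to the nearest other was larger, as a share of the range, than Dixon's 95% critical value, which chance gives in about 1 of 20 sets. In 10 sets a library stood apart. S+P C7 replicate 1 was the high one at Slc28a2b (282, others 106 to 117), at the Slc49a4 intron peak (236, others 119 to 139), at the far Slc9a9 intron peak (98.7, others 47.7 to 54.5) and at the Slc16a10 promoter (448, others 293 to 308). S+P C7 replicate 3 was high at Slc17a6 (1829, others 1232 to 1334). S+P C5 replicate 2 was low at the Slc12a7 intron peak (124, others 224 to 243) and high at Slc20a1 (280, others 258 to 261) and Slc36a3 (1301, others 973 to 1017). At Slc36a3, S+P C4 replicate 1, the shallowest library, was low (381, others 794 to 808). S+P C4 replicate 2 was high at Slc30a5 (140, others 92.5 to 98.7).

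Both peaks named for the interaction were named because they were called in it. At them, the difference between C5 cells taken after pregnancy and the cells of unmated mice differed between sensitized and naive animals. The values were 1.21 on the log2 scale at Slc36a3 (adjusted p = 0.00538, DESeq2) and -1.03 at the Slc12a7 intron peak (adjusted p = 0.00341). Without S+P C5 replicate 2 the Slc12a7 value was -0.87 and was not called.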

How the results depend on the processing

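The counts of called Slc peaks kept within 1.5 times their value in the settings not given here. Naming peaks by the nearest start of any gene, noncoding included, left 122 Slc peaks in place of 211, with 5 called in Sensitized vs Naive, 0 in S+P C4 vs Sensitized, 6 in S+P C5 vs Sensitized, 9 in S+P C7 vs Sensitized, 11 for S+P C5 vs N+P C5, 5 in S+P C5 vs S+P C4, 1 in S+P C7 vs S+P C5 and 4 in the interaction. With the libraries of a comparison alone, 2 were called in N+P C1 vs Naive, 1 in N+P C5 vs Naive, 0 in S+P C4 vs Sensitized and 7 in S+P C7 vs S+P C5. An adjusted p of 0.05 gave 0 in S+P C4 vs Sensitized and 7 in the interaction, and edgeR gave 0 in the former. Without Sensitized replicates 3 and 4 together, a setting chosen after seeing the data, 7 were called in S+P C4 vs Sensitized, 5 in S+P C5 vs Sensitized, 14 in S+P C7 vs Sensitized and 3 in the interaction. For these changes the cause was not tested. Under the first there were fewer Slc peaks to count, but the calls fell by a larger share than the peaks. They went from 19 to 5 in Sensitized vs Naive and from 36 to 11 for S+P C5 vs N+P C5.

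With single libraries left out, the counts ranged over 14 to 23 (Sensitized vs Naive), 0 to 1 (N+P C1 and N+P C5 vs Naive), 0 to 0 (N+P C5 vs N+P C1), 0 to 3 (S+P C4 vs Sensitized), 8 to 19 (S+P C5 vs Sensitized), 20 to 29 (S+P C7 vs Sensitized), 33 to 40 (S+P C5 vs N+P C5), 7 to 13 (S+P C5 vs S+P C4), 1 to 8 (S+P C7 vs S+P C5) and 4 to 23 (interaction).

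With the mouse as a replicate block, 0, 11 and 6 Slc peaks were called in N+P C5 vs N+P C1, S+P C5 vs S+P C4 and S+P C7 vs S+P C5, against 0, 11 and 4 without it. Between different mice the samples share only a label number, whose deviations did not correlate in every pair (S+P C4 with Sensitized, -0.759 to -0.0167), and a block on that number gave 1 call in N+P C1 vs Naive (Slc5a11) and otherwise counts within 1.5 times the unblocked ones.

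For the 33 named fold changes, 18 kept their call in every setting tried. Of 547 alternative values, 39 missed the thresholds, 27 of them with a single library left out, and 0 changed direction. Depth limits the peaks with few counts in Naive cells, such as Slc5a11 and Slc35f3.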

Other observations

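Slc genes with several peaks were not uniform. Of the 141 genes, 103 had a single peak and 20 had 3 or more. Slc39a10, the zinc importer gene, had 4 peaks with different patterns. The intron peak 31148 bp inside the gene held 421, 418 and 481 counts in N+P C5 and 258, 104, 156 and 180 in S+P C5, without overlap (log2 fold change -1.32 ± 0.33, adjusted p = 0.000303, DESeq2). The intron peak 61401 bp inside held 309, 220, 196 and 325 in S+P C5 and 396, 327, 394 and 640 in S+P C7, higher in S+P C7 without overlap (0.74 ± 0.20, adjusted p = 0.00785) and under the fold threshold. Against S+P C4, with 364, 400, 450 and 578, the same peak was lower in S+P C5 (-0.78 ± 0.20, adjusted p = 0.00298).

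Closing peaks in S+P C7 vs Sensitized, where 16.4% of all distal peaks closed, included peaks of 2 more choline transporter genes besides Slc44a1. The Slc44a2 intron peak 7376 bp inside the gene held 370, 348, 506 and 438 counts in Sensitized and 269, 218, 182 and 184 in S+P C7 (-0.96 ± 0.17, adjusted p = 6.89e-07). The Slc44a3 intron peak 38346 bp inside held 149, 221, 409 and 389 in Sensitized and 162, 66.4, 48.0 and 109 in S+P C7, with overlap (-1.58 ± 0.33, adjusted p = 2.31e-05). These peaks were chosen after their values were seen.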
